A study of Homo sapiens with 6 samples.

Results

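The interferon regulatory factors IRF1, IRF2, IRF4, IRF5, IRF7, IRF8 and IRF9 were followed in RNA-seq read counts from the human lung cancer line H2122. They are 7 of the 59050 gene symbols in the count files and were taken by symbol. They had been chosen with the counts of this same comparison known, so their differences between groups are given as a description, with no p-value and no call. IRF3 stands beside them for comparison. The groups were 3 libraries of vehicle-treated H2122 cells with the genotype SMARCA4 KO (knockout) and 3 libraries of vehicle-treated parental H2122 cells with the genotype WT. Sample titles number all 3 knockout libraries 1 and the parental libraries 1, 3 and 6; what these numbers stand for, whether the knockout is 1 clone and whether replicates were separate cultures are not stated. The spread between replicates can therefore be technical, and what belongs to a clone cannot be told apart from the knockout.

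Interferon regulatory factors are transcription factors that share a DNA-binding domain with a repeat of tryptophans, which reads GAAA-containing sites in the genes that interferons and pathogen sensors switch on. IRF1 is an activator induced by interferon gamma, and IRF2 binds the same sites and often opposes it. IRF5 and IRF7 are activated by phosphorylation downstream of pattern recognition receptors, and IRF9 is the DNA-binding subunit of ISGF3, the complex that carries the type I interferon signal. IRF4 and IRF8 act mainly in lymphoid and myeloid cells, and IRF3 is phosphorylated downstream of STING, the pathway the series concerns.

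The libraries held between 55120937 and 59917980 reads assigned to genes, so that 3 counts, taken as the limit of detection, correspond to between 0.0501 and 0.0544 CPM, the usual unit of reads scaled by library size. SMARCA4 itself was measured at 20.7, 19.3 and 24.9 CPM in the knockout libraries, against 232, 214 and 335 CPM in the parental ones. The second principal component, with 19.0% of the variance, set parental replicate 3 apart, so values are also given without that library. Of 10 epithelial markers, 9 were tested and 7 fell, where 14.3% of all genes fell, with log2 fold changes between -6.92 for CLDN4 and -0.70 for KRT8, and the list summed to between 3174 and 3437 CPM in the knockout libraries, against between 7719 and 8524 CPM in the parental libraries. NKX2-1, a transcription factor of the lung lineage, had at most 1 read in a knockout library, against 17, 12 and 8 reads in the parental libraries. The part of these differences in the results below was not tested.

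Of the 7 genes, IRF7, IRF5, IRF1 and IRF2 were lower in every knockout library than in every parental one, IRF9 overlapped between the groups, and IRF4 and IRF8 were not above the limit of detection in any library. The order of the differences was IRF7, IRF5, IRF1 and IRF2, with the parental level between 2.82 and 1.37 times that of the knockout. Together the 7 genes held 2661, 2577 and 2911 reads in the knockout libraries, against 4520, 4887 and 3653 reads in the parental libraries. The 5 genes with enough reads for the fit include the 4 with no overlap, where 22.8% of the 17809 genes tested were lower in the knockout with no overlap between groups. Of all genes, 27% were higher in the knockout with no overlap and 49.8% did not overlap in either direction. Nothing is read from the members' count, since the genes were chosen on this contrast. For the other genes named below, a change was called at an adjusted p of 0.05 by edgeR's quasi-likelihood fit, in which 14.3% of all genes fell, 13.3% rose and 27.6% changed in either direction. Without parental replicate 3, 30.8% of genes fell and 30.8% rose. Without knockout replicate 1, 2 or 3, 8.14%, 7.98% and 8.12% fell and 6.93%, 6.62% and 7.09% rose, in that order. Without parental replicate 1, 10.7% fell and 8.97% rose, and without parental replicate 2, 11.3% fell and 9.42% rose.

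Promoter sequence from RefSeq (GRCh38.p14, from 250 bases before to 50 after an annotated start) was matched by symbol for 5 of the 7 genes, in 9 windows. The windows of IRF1, IRF5 and IRF9 are shown because they hold matches to the motifs searched, and because IRF1 and IRF5 were lower in the knockout while IRF9 overlapped. Motifs were searched on both strands. The IRF core AANNGAAA was present in 22.9% of 34943 such windows over all genes, the longer interferon-stimulated response element (GAAA, then NN, then GAAA), which contains a core, in 3.57%, the STAT site TTCNNNGAA in 7.66%, and the NF-kB motif in 11.3%. Capitals mark the matches.
IRF1, chr5:132490724-132491023, minus strand: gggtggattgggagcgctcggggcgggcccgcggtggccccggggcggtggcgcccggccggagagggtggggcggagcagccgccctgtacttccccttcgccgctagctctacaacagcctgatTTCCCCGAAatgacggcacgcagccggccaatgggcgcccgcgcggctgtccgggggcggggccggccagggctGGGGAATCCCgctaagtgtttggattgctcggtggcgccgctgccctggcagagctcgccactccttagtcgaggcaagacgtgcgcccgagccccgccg
IRF5, chr7:128940420-128940719, plus strand: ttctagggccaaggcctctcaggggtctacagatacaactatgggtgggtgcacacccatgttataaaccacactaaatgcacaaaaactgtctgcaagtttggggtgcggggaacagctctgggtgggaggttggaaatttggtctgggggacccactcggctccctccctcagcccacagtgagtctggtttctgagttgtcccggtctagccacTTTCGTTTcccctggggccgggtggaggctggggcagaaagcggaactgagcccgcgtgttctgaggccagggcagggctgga
IRF9, chr14:24161015-24161314, plus strand: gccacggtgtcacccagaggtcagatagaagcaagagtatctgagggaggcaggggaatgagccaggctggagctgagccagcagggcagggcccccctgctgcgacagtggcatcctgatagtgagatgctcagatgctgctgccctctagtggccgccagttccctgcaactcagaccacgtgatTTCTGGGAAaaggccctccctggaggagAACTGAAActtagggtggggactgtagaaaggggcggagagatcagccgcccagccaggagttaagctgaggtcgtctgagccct

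In IRF1 the capitals are a STAT site whose first base is at -124 from the start and an NF-kB motif at -50. In IRF9 they are a STAT site at -63 and an IRF core at -35. IRF5 has 4 windows at its alternative starts, and 1 of them holds a match, an IRF core on the opposite strand at -33. Both windows of IRF8 hold an IRF core, the window of IRF4 holds none of the 4 motifs, and no window of the 5 genes holds the longer element. A match describes these letters only and says nothing of binding in these cells.

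IRF7 (chromosome 11, 612553 to 615999 on GRCh38, minus strand), the interferon-inducible factor that amplifies type I interferon production, had the largest difference of the 7. It was measured at 2.48, 2.63 and 2.87 CPM in the knockout libraries, against 7.36, 8.72 and 6.44 CPM in the parental ones. Every parental library lay above every knockout library. The log2 fold change of knockout less parental was -1.50 with a standard error (SE) of 0.17, and -1.64 without parental replicate 3. These levels rest on 458 reads in the knockout and 1307 in the parental group, with a spread of 7.39% of the mean in the knockout libraries, against 15.3% in the parental ones. Counting alone gives 8.09% in the knockout and 4.79% in the parental libraries, so the parental libraries spread more widely than counting.

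IRF5 (chromosome 7, 128937612 to 128950035, plus strand), which drives inflammatory cytokine genes downstream of MYD88, was measured at 5.43, 5.59 and 6.81 CPM in the knockout libraries, against 13.1, 13.5 and 8.65 CPM in the parental ones. Parental replicate 3 was the lowest parental library and lay nearer to the highest knockout library than to the other parental ones. The log2 fold change was -0.98 (SE 0.21), and -1.21 without that library. The spread was 12.7% of the mean in the knockout libraries, against 22.9% in the parental ones, where counting alone gives 5.41% and 3.83% in that order.

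IRF1 (chromosome 5, 132481609 to 132490798, minus strand) was measured at 20.3, 18.9 and 20.7 CPM in the knockout libraries, against 32.7, 34.9 and 24.1 CPM in the parental ones. The groups did not overlap, and parental replicate 3 was again the lowest parental library. The log2 fold change was -0.61 (SE 0.16), and -0.81 without that library. The spread was 4.81% of the mean in the knockout libraries, against 18.6% in the parental ones, where counting alone gives 2.95% and 2.37% in that order. The exons of IRF1 share 1716 of 7799 bases with C5orf56 on the opposite strand, and the strand setting of the counting is not given in the sources used here. C5orf56 itself was measured at 1.22, 1.36 and 1.16 CPM in the knockout libraries, against 1.45, 1.41 and 0.686 CPM in the parental ones (log2 fold change 0.08, edgeR adjusted p = 0.883).

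IRF2 (chromosome 4, 184387713 to 184474580, minus strand) was measured at 17.5, 18.1 and 16.2 CPM in the knockout libraries, against 24.3, 23.0 and 23.8 CPM in the parental ones. Its log2 fold change was -0.46 (SE 0.10), the smallest of the 4 genes without overlap, and -0.50 without parental replicate 3. Its spread was 5.75% of the mean in the knockout libraries, against 2.72% in the parental ones, where counting alone gives 3.18% and 2.70% in that order. The number of IRF1 reads per IRF2 read was 1.16, 1.04 and 1.28 in the knockout libraries and 1.35, 1.51 and 1.01 in the parental libraries. That ratio overlapped between the groups, with parental replicate 3 the lowest of all 6.

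IRF9 (chromosome 14, 24161053 to 24166565, plus strand) was measured at 1.27, 1.47 and 1.57 CPM in the knockout libraries, against 1.63, 1.66 and 1.23 CPM in the parental ones. The groups overlapped, with the lowest value of all 6 in parental replicate 3. The log2 fold change was -0.07 (SE 0.20), and it ranged from -0.24 to 0.02 with 1 library left out, so that its sign depended on the library. Only 70 to 99 reads per library were assigned to IRF9, and the spread was 10.6% of the mean in the knockout libraries, against 15.8% in the parental ones, where counting alone gives 11.0% and 10.7% in that order. In GENCODE 29 the exons of IRF9 share 1838 of 3794 bases, 48.4%, with AL136295.5, a gene on the same strand whose exons overlap those of both RNF31 and IRF9. Reads in shared bases can be set aside as ambiguous, which was the fate of 3.78% to 4.38% of the reads per library, so the level of IRF9 is uncertain. AL136295.5 was measured at 0.601, 0.853 and 0.696 CPM in the knockout libraries, against 0.455, 0.435 and 0.193 CPM in the parental ones (log2 fold change 0.98, edgeR adjusted p = 0.0946).

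IRF4 (chromosome 6, 391739 to 411447) and IRF8 (chromosome 16, 85898803 to 85922609) were at or under the limit. For IRF4, the knockout libraries gave 2, 2 and 3 reads and the parental libraries 3, 2 and 2 reads. Summed over each group this is 7 reads in both, or 0.0408 CPM for the knockout (95% exact Poisson interval 0.0164 to 0.084) and 0.0402 CPM for the parental libraries (0.0162 to 0.0828). No difference of IRF4 was detectable at this depth. IRF8 had 0 reads in all 6 libraries, which allows up to 0.0175 CPM for the knockout and 0.0172 CPM for the parental group, taking 3 counts over the group as the limit. These intervals and limits cover counting error only.

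**Figure D1:**
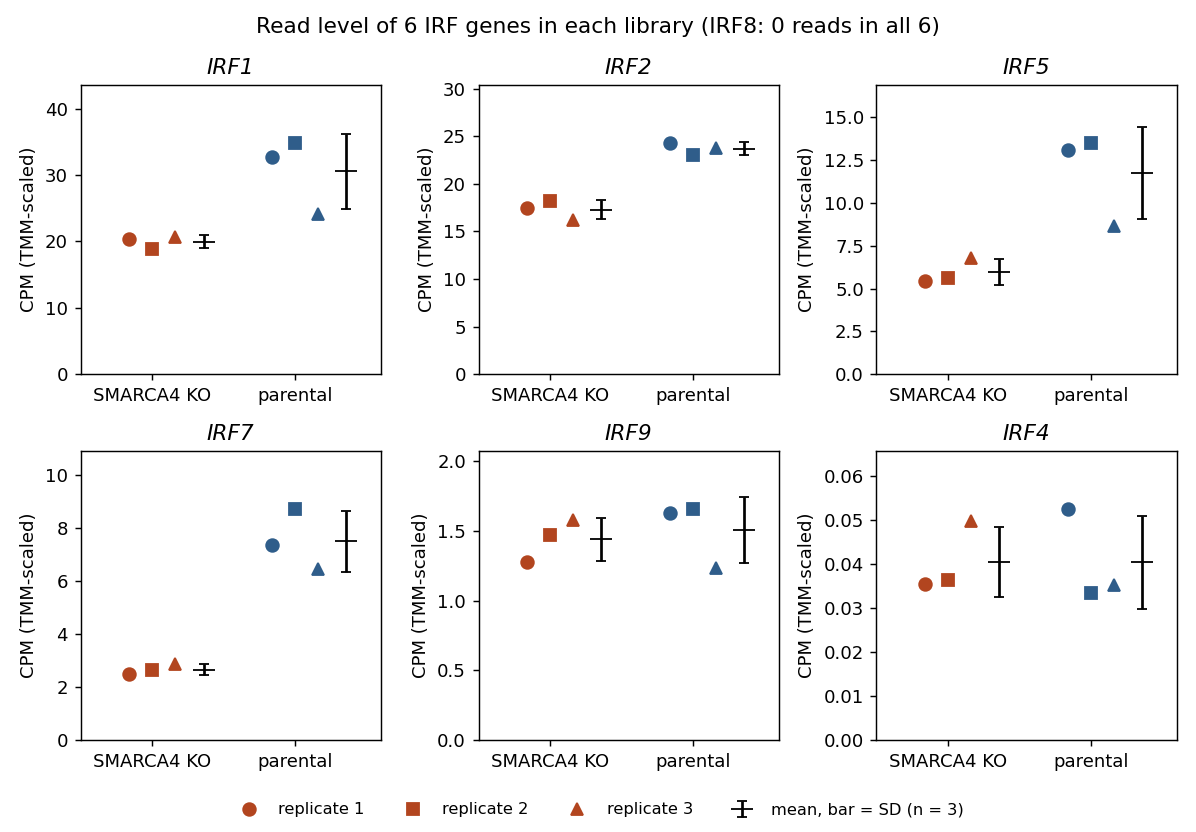
Read level in CPM after TMM scaling of 6 IRF genes in each library, with knockout libraries on the left and parental libraries on the right of each panel; marks give the replicate, and the black mark and bar give the mean and SD (n = 3). IRF7, IRF5, IRF1 and IRF2 do not overlap between groups, while IRF9 and IRF4 do, and parental replicate 3 lies below the other parental libraries for IRF1, IRF5, IRF7 and IRF9.

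The cells in which IRF4 and IRF8 are best known were looked for by their markers. Of 10 B-cell and plasma-cell markers, 6 had at most 3 reads in any library, among them MS4A1 and JCHAIN with 0 reads in all libraries. The summed level of the 10 ranged from 1.33 to 1.56 CPM in the knockout and from 2.73 to 4.34 CPM in the parental libraries. CD22 made up most of it, at 1.08, 1.40 and 1.21 CPM in the knockout, against 3.84, 3.65 and 2.23 CPM in the parental libraries. Of 15 myeloid and dendritic markers, 8 had at most 3 reads in any library. These 8 include 5 with 0 reads in all libraries, among them PTPRC, the common leukocyte antigen, AIF1 and TYROBP. The summed level of the 15 markers ranged from 1.04 to 1.34 CPM in the knockout and from 2.09 to 5.39 CPM in the parental libraries. LAPTM5, which was detected, had 9, 20 and 13 reads in the knockout libraries, against 217, 212 and 9 reads in the parental ones. Of 9 T-cell and natural killer markers, CD2 had 0 reads throughout, and the sum ranged from 1.84 to 2.18 CPM in the knockout and from 2.14 to 2.49 CPM in the parental libraries. CD8A made up most of that sum, at 1.59, 1.91 and 1.67 CPM in the knockout, against 2.21, 1.77 and 1.69 CPM in the parental libraries. Of the 7 markers tested in these 3 lists, the B-cell genes CD79A and CD22 and the myeloid gene LYZ fell in the knockout and 4 did not pass, where 14.3% of all genes fell. Of 7 fibroblast markers 3 were tested: LUM and COL3A1 rose and COL1A1 fell.

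Parental replicate 3 did not differ from the other parental libraries in the same way for each gene. Its level less the mean of parental replicates 1 and 2 was -0.62 on the log2 scale for IRF5, -0.49 for IRF1, -0.42 for IRF9 and -0.32 for IRF7. For IRF2 the same difference was 0.01. Against those 2 parental libraries the knockout mean lay at -1.60 for IRF7, -1.16 for IRF5, -0.76 for IRF1, -0.45 for IRF2 and -0.19 for IRF9. Parental replicate 3 thus stood between the knockout and the other parental libraries for IRF7, IRF5 and IRF1, but below the knockout mean for IRF9. SMARCA4 was not lower in that library, at 335 CPM against 223 CPM on average in the other 2. Of all genes tested, 41.0% differed by over 0.5 in either direction between parental replicate 3 and the other 2 on a log2(CPM + 0.5) scale, with a median of -0.00.

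**Figure D2:**
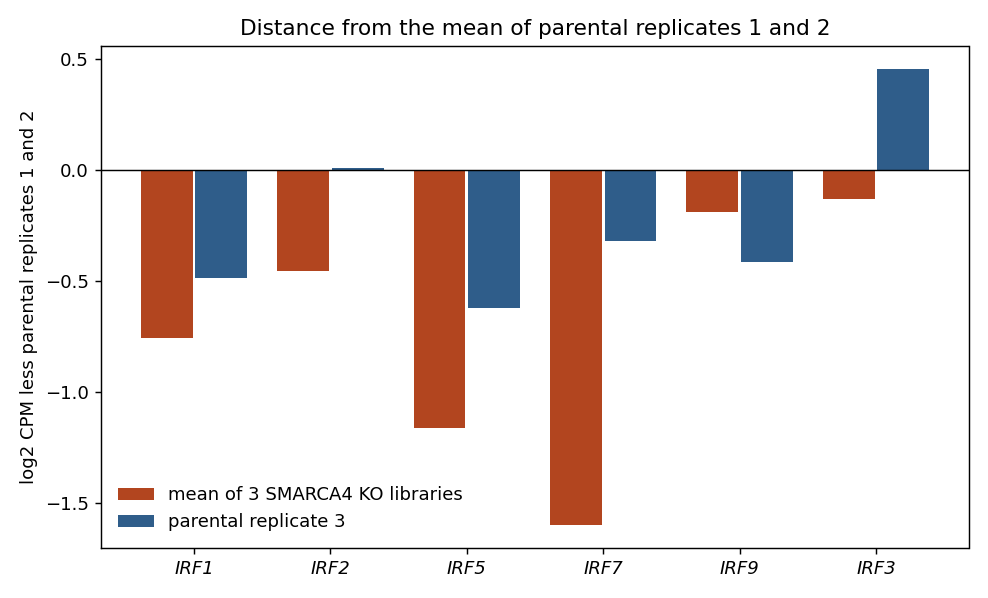
Distance on the log2 CPM scale from the mean of parental replicates 1 and 2, for the mean of the 3 knockout libraries and for parental replicate 3, in 5 of the genes described here and in IRF3. For IRF5 parental replicate 3 lies at -0.62 and the knockout mean at -1.16, whereas for IRF2 parental replicate 3 lies at 0.01.

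Levels of different genes were compared per length, as TMM-scaled CPM per kilobase of annotated exon (RPKM). In the knockout the order was IRF2 at 5.55 ± 0.319, IRF1 at 2.56 ± 0.123, IRF5 at 1.36 ± 0.172, IRF7 at 1.01 ± 0.0747 and IRF9 at 0.379 ± 0.0402 RPKM (SD, n = 3). In the parental libraries IRF2 was measured at 7.61 ± 0.207, IRF1 at 3.92 ± 0.731, IRF7 at 2.86 ± 0.438, IRF5 at 2.69 ± 0.615 and IRF9 at 0.397 ± 0.0628 RPKM. IRF5 and IRF7 did not differ beyond their spread in the parental libraries, with IRF5 at 2.99, 3.09 and 1.98 RPKM and IRF7 at 2.80, 3.32 and 2.45 RPKM. In the knockout libraries they did not overlap, with IRF5 at 1.24, 1.28 and 1.56 RPKM and IRF7 at 0.942, 1.00 and 1.09 RPKM. With only the exon bases that no other gene shares, IRF1 came to 3.28 RPKM in the knockout and 5.03 RPKM in the parental libraries. IRF9 came to 0.736 and 0.77 RPKM in the same order, which left the order of the genes as it was. The lengths merge the exons of all annotated transcripts, 7799 bases in 4 merged exons for IRF1 and 3116 bases in 14 for IRF2. In CPM, without length, IRF1 lay above IRF2 in every library, so the order of IRF1 and IRF2 rests on these lengths. Within a library, IRF7 had 0.122, 0.139 and 0.138 reads per IRF1 read in the knockout, against 0.225, 0.250 and 0.267 in the parental libraries.

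**Figure D3:**
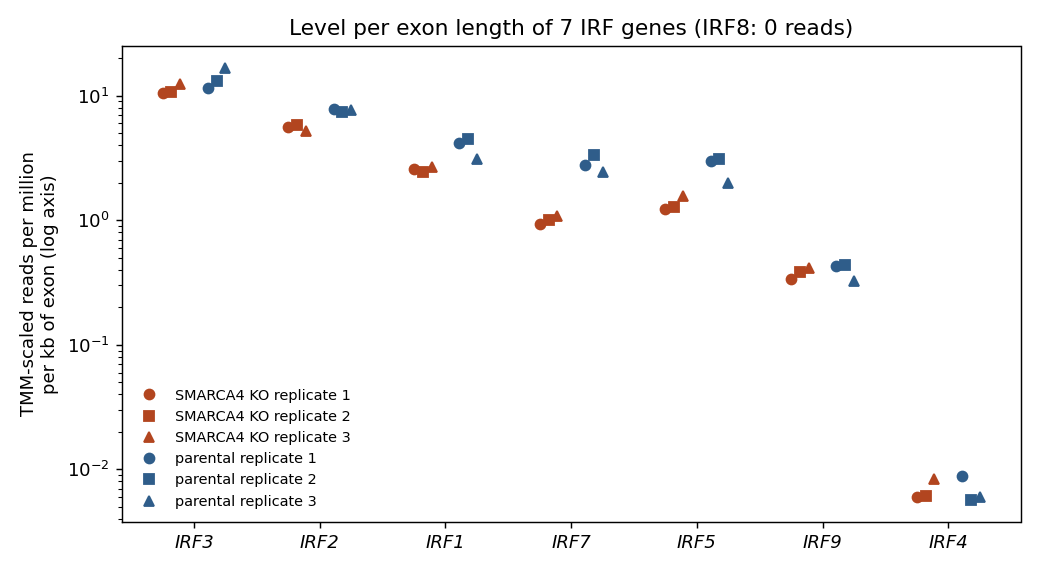
TMM-scaled CPM per kilobase of exon, on a log axis, for 7 IRF genes in the 3 knockout libraries (left of each gene) and the 3 parental libraries (right). IRF3, shown for comparison, is the highest, at 11.2 in the knockout and 13.8 in the parental libraries on average. IRF2 comes next in both groups, and IRF5 and IRF7 overlap in the parental libraries only.

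IRF3 was measured at 39.8, 40.6 and 47.5 CPM in the knockout libraries, against 43.8, 49.6 and 63.9 CPM in the parental ones (log2 fold change -0.30, edgeR adjusted p = 0.243), and the groups overlapped. Its exons share 734 bases with BCL2L12 on the opposite strand. IRF2BP2, a corepressor of IRF2, fell to 82.0 ± 3.45 CPM in the knockout, against 136 ± 24.6 CPM in the parental libraries (-0.73, edgeR adjusted p = 0.0151). Its relative IRF2BPL rose to 203 ± 1.42 CPM in the knockout, against 106 ± 25.9 CPM in the parental libraries (0.95, edgeR adjusted p = 0.0145). Both of these calls were lost without any 1 of the knockout libraries, with an edgeR adjusted p of at most 0.0759 for IRF2BP2 and at most 0.0581 for IRF2BPL.

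Of the nearest protein-coding genes on each side, 9 that had enough reads for the test are described. SLC22A5, a carnitine transporter gene 85994 bases from IRF1, rose to 161, 152 and 157 CPM in the knockout, against 64.0, 64.6 and 63.5 CPM in the parental libraries (log2 fold change 1.29, edgeR adjusted p = 0.000202). KCP, 26892 bases from IRF5, fell to 0.583, 0.544 and 0.596 CPM in the knockout, against 6.16, 8.24 and 3.99 CPM in the parental libraries (-3.41, edgeR adjusted p = 0.000672), while TNPO3, 4144 bases away on the other side, did not pass (-0.23, edgeR adjusted p = 0.145). PHRF1, only 330 bases from the 3' end of IRF7, did not pass either, at 80.8, 79.9 and 81.8 CPM in the knockout and 87.0, 87.5 and 102 CPM in the parental libraries (-0.19, edgeR adjusted p = 0.227). COX4I1, on one side of IRF8, rose (0.56, edgeR adjusted p = 0.0366), a call lost in 7 of 13 other settings, all edgeR fits with an adjusted p of at most 0.132. DUSP22 and EXOC2 beside IRF4, and RNF31 and REC8 beside IRF9, did not pass, with log2 fold changes between -0.04 and 0.70. Exons of RNF31 also share 39.1% of their bases with AL136295.5 and PSME2.

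Genes whose profile over the 6 libraries was most like that of each IRF gene were ranked by the root mean square difference of log2(CPM + 0.5), each gene centred on its own mean, among 10978 genes with a mean of at least 5 CPM. They were picked for their values and are given with no test. Counting alone gives a spread of 8.09% of the mean for IRF7 and 11.0% for IRF9 in the knockout libraries. The ranks of close genes can therefore rest on counting error. For IRF7 the closest were ABO (0.0447), UNC13D (0.0558) and ZNF185 (0.0684), and 9 genes lay within 0.1. ABO was measured at 4.35, 4.41 and 4.55 CPM in the knockout, against 11.8, 14.3 and 10.9 CPM in the parental libraries. For IRF5 they were CLSTN3 (0.0495), PXN (0.0681) and AP1G2 (0.0715), with 12 within 0.1. For IRF1 they were FBXL18 (0.0334), FZR1 (0.0391) and CLN8 (0.0433), with 103 within 0.1. For IRF2 they were VPS37A (0.0212), FBXO28 (0.0301) and SNX13 (0.0303), with 306 within 0.1, and for IRF9 ZNF205 (0.039), AC016586.1 (0.0403) and HOXC6 (0.042), with 312 within 0.1.

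The genes around the IRF proteins were described by lists and read against all 17809 genes tested, of which 14.3% fell and 13.3% rose, with a median log2 fold change of 0.02. Among the ligands, 20 of 21 interferon genes had 0 reads in all 6 libraries, IFNB1, IFNG and IFNA2 among them. IFNE, an epithelial type I interferon, was the one detected, at 2.37, 2.14 and 1.81 CPM in the knockout libraries, against 1.37, 1.69 and 0.404 CPM in the parental ones (0.86, edgeR adjusted p = 0.246). In bulk RNA a lower level in each cell and fewer cells with the gene cannot be told apart, here and for the IRF genes.

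Among interferon receptors, JAKs, STATs and their inhibitors, 4 of 18 fell and 3 rose, where 14.3% of all genes fell and 13.3% rose. The other 11 did not pass, and the median was 0.03. Without parental replicate 3, 6 fell and 4 rose, where 30.8% of all genes fell and 30.8% rose. Without parental replicate 1, 1 fell and 2 rose, where 10.7% of all genes fell and 8.97% rose. Without parental replicate 2, 1 fell and 3 rose, where 11.3% of all genes fell and 9.42% rose. Without any 1 of the knockout libraries, 1 fell and 2 rose, where 7.98% to 8.14% of all genes fell and 6.62% to 7.09% rose. PTPN6, a phosphatase that restrains JAK signalling, fell to 5.36, 4.90 and 4.95 CPM in the knockout, against 24.6, 24.4 and 24.1 CPM in the parental libraries (-2.26, edgeR adjusted p = 7.2e-05). IFNGR1, the ligand-binding chain of the interferon gamma receptor, rose to 147, 141 and 134 CPM in the knockout, against 68.5, 68.6 and 54.2 CPM in the parental libraries (1.14, edgeR adjusted p = 0.00139). SOCS3, a feedback inhibitor of cytokine signalling, rose to 37.8, 37.4 and 38.3 CPM in the knockout, against 15.4, 15.7 and 21.5 CPM in the parental libraries (1.11, edgeR adjusted p = 0.00348). STAT2, a partner of IRF9 in ISGF3 named after its values were seen, was measured at 67.6 ± 9.64 CPM in the knockout libraries, against 75.2 ± 21.1 CPM in the parental ones, and did not pass (-0.15, edgeR adjusted p = 0.666).

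Of the adaptors and kinases that lead to IRF5 and IRF7, 2 of 16 tested fell and 0 rose, where 14.3% of all genes fell and 13.3% rose. The other 14 did not pass, and the median was -0.26. TBK1, a kinase among those 14 that was named after its values were seen, had a log2 fold change of 0.01 (edgeR adjusted p = 0.956). IKBKE, a kinase of IRF3 and IRF7, fell to 13.0, 13.4 and 15.3 CPM in the knockout, against 37.3, 41.1 and 35.5 CPM in the parental libraries (-1.45, edgeR adjusted p = 0.00042). TMEM173, which encodes STING, fell to 1.29, 1.16 and 1.29 CPM in the knockout, against 14.8, 17.4 and 26.6 CPM in the parental libraries (-3.97, edgeR adjusted p = 0.000226). Without parental replicate 3, 11 of this list fell and 1 rose, in a fit that called 30.8% of all genes falling and 30.8% rising. The endosomal receptor genes TLR7, TLR8 and TLR9, which signal to IRF5 and IRF7 in blood cells, had too few reads to be tested; TLR7 had 5, 1 and 3 reads in the knockout libraries, against 5, 4 and 2 reads in the parental ones.

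The list of DNA-binding partners of IRF proteins also holds the acetyltransferases CREBBP, EP300 and KAT2B. Of its 13 tested genes, 3 fell and KAT2B, named after its values were seen, rose, while 9 did not pass. Of all genes 14.3% fell and 13.3% rose in the same fit. The median was -0.15. BATF, the AP-1 factor that binds composite sites with IRF4 and IRF8, totalled 1 read over the knockout libraries, against 761 reads over the parental libraries, a parental level 754 times that of the knockout (95% counting interval 135 to 29812). That single read was in knockout replicate 1, and the fitted log2 fold change was -9.10 with all libraries and -10.99 without that one. IKZF1, a lymphoid zinc finger factor, fell to 0.0354, 0.0726 and 0 CPM in the knockout, against 0.771, 0.804 and 0.404 CPM in the parental libraries (-4.15, edgeR adjusted p = 0.00684). The knockout values rest on 2, 4 and 0 reads, and the log2 fold change was -5.09 without knockout replicate 2 and -3.56 without knockout replicate 3. BATF2 fell to 0.517 ± 0.0268 CPM in the knockout, against 1.00 ± 0.145 CPM in the parental libraries (-0.95, edgeR adjusted p = 0.0168), a call lost with the replicate block and without any 1 of the knockout libraries (at most 0.0882). SPI1, the haematopoietic partner of IRF4 and IRF8, had 2, 0 and 1 reads in the knockout libraries, against 0 in all parental ones, and was not tested. Without parental replicate 3, 6 of this list fell and 2 rose, where 30.8% of all genes fell and 30.8% rose. Without any 1 of the knockout libraries, 2 fell and 0 rose, where 7.98% to 8.14% of all genes fell and 6.62% to 7.09% rose. With the replicate block, 2 fell and 0 rose, where 1662 of 17809 genes fell and 1378 rose. Without parental replicate 1 or 2, 3 fell and 0 rose, where 10.7% and 11.3% of all genes fell and 8.97% and 9.42% rose.

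Of 12 genes known to control the amount or activity of IRF proteins, 3 fell and 1 rose, where 14.3% of all genes fell and 13.3% rose. The other 8 did not pass, and the median was -0.41. RBCK1, a subunit of the linear ubiquitin ligase whose catalytic subunit RNF31 encodes, rose to 397, 386 and 422 CPM in the knockout, against 229, 233 and 213 CPM in the parental libraries (0.84, edgeR adjusted p = 0.00189). EIF4EBP2, a translation repressor that in mouse restrains synthesis of the Irf7 protein, fell to 122, 119 and 116 CPM in the knockout, against 189, 186 and 196 CPM in the parental libraries (-0.68, edgeR adjusted p = 0.0025). EIF4EBP1, also on the list and named after its values were seen, did not pass. It was measured at 143 ± 8.11 CPM in the knockout, against 102 ± 32.7 CPM in the parental libraries (0.49, edgeR adjusted p = 0.207). TRIM21, a ubiquitin ligase that acts on several IRF proteins, fell to 5.23 ± 0.234 CPM in the knockout, against 8.99 ± 0.918 CPM in the parental libraries (-0.78, edgeR adjusted p = 0.0083); the call was lost with the replicate block and without knockout replicate 2 or 3 (at most 0.0583). Without parental replicate 3, 8 of the list fell and 3 rose, where 30.8% of all genes fell and 30.8% rose. Without knockout replicate 2 or 3, 1 fell and 1 rose, where 7.98% and 8.12% of all genes fell and 6.62% and 7.09% rose.

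Of the genes reported as IRF1 targets, 31 of 41 were tested: 16 fell and 1 rose, while 14 did not pass, 54.8% called against 27.6% of all genes, with a median of -0.78. CASP1, the inflammasome protease, fell to 0.283, 0.327 and 0.265 CPM in the knockout, against 2.89, 2.91 and 1.83 CPM in the parental libraries (-3.12, edgeR adjusted p = 0.000538). APOL1 fell to 1.63, 1.94 and 1.59 CPM in the knockout, against 35.9, 32.7 and 94.3 CPM in the parental libraries (-4.98, edgeR adjusted p = 0.001). Parental replicate 3 was the highest parental library for APOL1 but the lowest for CASP1, as for IRF1. The riser in the fit with all libraries was IL15, a cytokine for natural killer and T cells, at 20.1, 19.7 and 18.4 CPM in the knockout, against 3.55, 4.24 and 5.59 CPM in the parental libraries (2.12, edgeR adjusted p = 0.000667). TAP1, named with its partner in peptide transport after their values were seen, was measured at 43.6 ± 0.512 CPM in the knockout libraries, against 39.6 ± 4.84 CPM in the parental ones, and did not pass. TAP2 fell to 17.3 ± 0.692 CPM in the knockout, against 39.0 ± 10.6 CPM in the parental libraries (-1.17, edgeR adjusted p = 0.0076). Without any 1 of the knockout libraries 10 fell and 1 rose, in fits that called 7.98% to 8.14% of all genes falling and 6.62% to 7.09% rising. Without parental replicate 3, 19 fell and 4 rose, where 30.8% of all genes fell and 30.8% rose.

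Of the targets of ISGF3, the complex that contains IRF9, 44 of 48 were tested: 28 fell and 2 rose, while 14 did not pass. This is 68.2% called, against 27.6% of all genes, with a median of -1.06. DHX58, an RNA sensor, fell to 0.407, 0.309 and 0.348 CPM in the knockout, against 4.62, 4.91 and 5.75 CPM in the parental libraries (-3.84, edgeR adjusted p = 9.74e-05). PARP10 fell to 3.36, 3.18 and 3.53 CPM in the knockout, against 15.5, 16.4 and 20.5 CPM in the parental libraries (-2.38, edgeR adjusted p = 0.000201), and SAMD9L, an antiviral factor, to 12.2, 11.9 and 11.8 CPM, against 40.9, 43.6 and 35.4 CPM (-1.74, edgeR adjusted p = 0.00021). STAT2 did not pass, and IRF9 overlapped between the groups. The risers in the fit with all libraries, named after their values were seen, were IFI6 (0.98) and SP100 (0.54). Both calls were lost with the replicate block and without knockout replicate 2 or 3, and that of SP100 also without knockout replicate 1 or parental replicate 2. Without knockout replicate 2 or 3, 19 fell and none rose, where 7.98% and 8.12% of all genes fell and 6.62% and 7.09% rose. Without parental replicate 3, 34 fell and 4 rose, where 30.8% of all genes fell and 30.8% rose. This list and that of IRF1 targets were drawn up with earlier results of these libraries known, so their direction is not independent evidence.

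**Figure D4:**
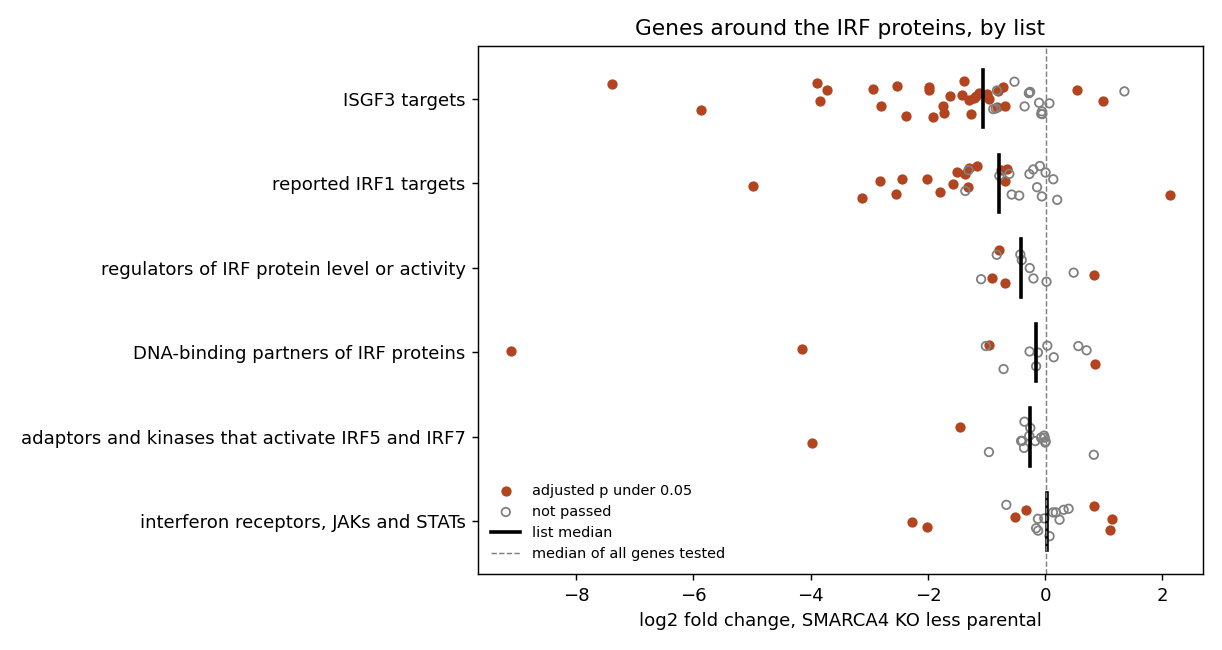
Log2 fold change of knockout less parental libraries for each tested gene of 6 lists; filled marks passed an adjusted p of 0.05 by edgeR, open marks did not, black bars are list medians and the dashed line is the median of all genes tested at 0.02. The medians lie at -1.06 for ISGF3 targets and -0.78 for IRF1 targets, and at 0.03 for receptors, JAKs and STATs.

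**Figure D5:**
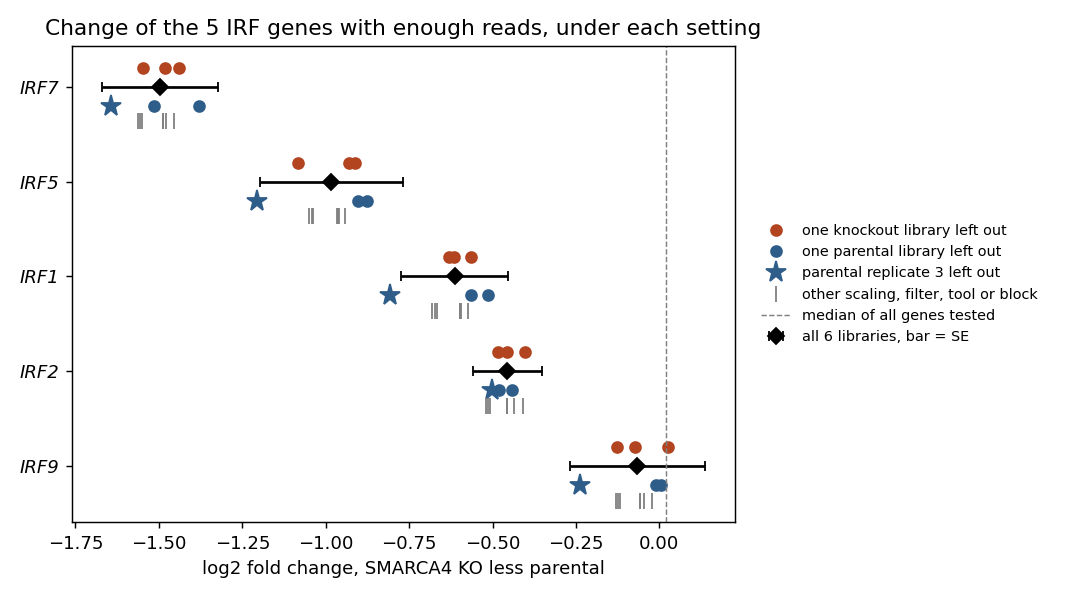
Log2 fold change of knockout less parental libraries for the 5 IRF genes with enough reads: black diamonds use all 6 libraries with the SE as a bar, coloured marks leave 1 library out, the star leaves out parental replicate 3, and grey ticks use another scaling, filter, tool or the replicate block. IRF7 stays between -1.64 and -1.38 with 1 library left out, and IRF9 lies between -0.24 and 0.02.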

How the data were processed

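RNA-seq of 6 libraries was analysed. The deposited files hold raw read counts per gene symbol, made by the authors with TopHat2 2.1.1, HTSeq 0.11.0 and build hg38, per the submitters' processing notes; for the annotation release, strand setting and counting mode, nothing is stated in the sources used here. The labels name the NEBNext Ultra II DNA kit. The last 5 rows of each file, unassigned reads (13.8% to 15.3%), were left out of library sizes and tests.

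Counts were filtered with filterByExpr, scaled by TMM and fitted with edgeR 4.0.16 in R 4.3.3 (robust quasi-likelihood F-test, two-sided, group only), with Benjamini-Hochberg adjustment over 17809 genes and a threshold of 0.05. The SE of a log2 fold change comes from the F value. The fit was tested on simulated data. Positions, exon lengths and neighbours are from GENCODE 29 (GRCh38), matched by symbol. Alternatives used DESeq2 1.42.0, limma-voom of limma 3.58.1, other scalings and filters, the replicate number as a block, and each library left out in turn.

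The members, the 8 lists, the 5 marker lists and the rule for named genes were chosen with earlier results of these data known. Named genes were the members, IRF3 and SMARCA4, up to 3 passing genes of each list by adjusted p (or the 2 with the highest CPM where none passed), the nearest protein-coding genes, and the 3 most like profiles of each member. Motifs were chosen after the counts had been analysed. Some genes that the rule names are not reported here.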

Additional observations from a re-analysis of the deposited data

How the results depend on the processing

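The log2 fold changes of the 5 fitted IRF genes moved by less than their replicate spread under all 13 alternatives. That spread includes parental replicate 3, so for the fit without that library it is not an independent measure. Over the 7 alternatives that kept every library, the log2 fold changes ranged from -1.56 to -1.45 for IRF7, -1.05 to -0.94 for IRF5, -0.68 to -0.57 for IRF1, -0.52 to -0.41 for IRF2 and -0.13 to -0.02 for IRF9. With 1 library left out the ranges were -1.64 to -1.38, -1.21 to -0.88, -0.81 to -0.51, -0.50 to -0.40 and -0.24 to 0.02 in the same order. Over all genes, 4912 were called in the fit with every library; between 2692 and 11325 with 1 left out (1221 to 5665 rising, 1471 to 5660 falling), the highest counts without parental replicate 3. With the replicate block 3040 were called, 1378 rising and 1662 falling. Deviations of same-numbered libraries from their group means had correlations of -0.05, -0.00 and -0.07. With 3 libraries per group and parental replicate 3 set apart, these values cannot decide whether the numbers pair the samples. The block left 4 calls among receptors, JAKs and STATs (7 without it), 2 among DNA-binding partners (4) and 2 among regulators of IRF proteins (4). At least 1 CPM in 3 libraries left 2 calls among the 9 DNA-binding partners it tested, where 3984 of 13707 genes were called. DESeq2 made 7 calls among 12 regulators, where 6003 of 33281 genes were called. The cause of these differences was not tested. With 1 library left out, calls ranged from 1 to 3 for the IRF family list, 3 to 10 for receptors, 2 to 12 for adaptors and kinases, 2 to 8 for DNA-binding partners, 2 to 11 for regulators, 11 to 23 for IRF1 targets and 19 to 38 for ISGF3 targets. Of 621 values of 48 other named genes under these alternatives, 59 lost a call, 4 gained one and 0 changed direction with a call. Depth limits IRF4, IRF8 and IRF9.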
